A study of Mus musculus with 3 samples.

Results

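The barcodes described here are shallow lymphatic barcodes from sorted cells of the mouse small intestine, first picked out as rich in nuclear RNA. A barcode was a member when it had fewer than 2500 UMIs (unique molecular identifiers, each counting 1 captured RNA molecule), no fewer than 500 detected genes and a mitochondrial share of UMIs of at most 15%. It also needed at least 2 UMIs of Lyve1, the hyaluronan receptor gene of lymphatic endothelium. A further condition was no UMI of Ptprc (leukocytes), Epcam (epithelium) or Dcn (fibroblasts). This gave 612 of 24541 barcodes, or 2.49%, with 215, 177 and 220 in libraries 1, 2 and 3. Together they held 1043743 UMIs, with a median per barcode of 1665, 1706 and 1870 UMIs and of 916, 877 and 957.5 genes. Before the filters on genes and mitochondrial UMIs, 768 shallow barcodes met the gene conditions. Of these, 133 had too few genes, and 23 others had too many mitochondrial UMIs. Levels were compared with the deeper lymphatic barcodes of the same library. These had 5000 to 10000 UMIs, at least 1 UMI of Prox1, the transcription factor gene of lymphatic identity, at least 5 of Lyve1, none of Ptprc or Epcam and at most 2 of Dcn. There were 3443, 3171 and 5456 of them, with medians of 7541, 7091 and 6847 UMIs.

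The study profiled single cells of small intestine without the duodenum from wild-type C57Bl/6 females aged 9 to 10 weeks, and it has no treatment groups. Tissue of 4 animals was pooled for each of the 3 libraries. Whether any animal gave tissue to more than 1 library is not recorded in the labels. The main p-values pair the classes within a library. They thus measure only how the difference between classes varies from library to library, a spread that may be technical. Epithelium was stripped with EDTA and DTT, the rest was digested with Liberase TL and DNase I for 60 min at 37 °C, and live CD45- CD31+ PDPN+ cells with a nuclear stain were sorted. CD45, CD31 and PDPN are the proteins of Ptprc, Pecam1 and Pdpn, so the sort bears on these genes. Of them, the rule used only Ptprc.

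As background, Malat1, Neat1, Xist and Kcnq1ot1 are long noncoding RNAs that stay in the nucleus: Malat1 and Neat1 at nuclear speckles and paraspeckles, Xist on the inactive X chromosome and Kcnq1ot1 at an imprinted domain. Spliced mRNAs of ribosomal proteins and of the cytoskeleton are mostly cytoplasmic, and mt- mRNAs are made inside mitochondria. Shares of these classes in a barcode are therefore often read as a guide to which compartments of a cell its RNA came from. Shares add up to the whole, so a share can be high because other RNA is scarce, and UMI counts cannot tell fewer molecules in the cell from fewer molecules captured.

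The 4 marker genes given for these barcodes were checked first, as a description, since they had been chosen from these data. Malat1 (chromosome 19, 5795690 to 5802672, GRCm38) stood at 35878, 26870 and 19314 CPM (UMIs of a gene scaled by all UMIs of the summed barcodes) in the shallow barcodes of libraries 1, 2 and 3. In the deeper barcodes it stood at 14091, 7890 and 9456 CPM, for a log2 fold change of 1.33 ± 0.07 (SE). Every shallow value lay above every deeper value. Kcnq1ot1 (chromosome 7, 143203458 to 143296549), which lies antisense to the potassium channel gene Kcnq1, stood at 158, 134 and 164 CPM against 63.5, 38.8 and 45.3 CPM. Gm26917 (chromosome 17, 39843013 to 39846341) stood at 293, 322 and 276 CPM against 38.0, 37.2 and 36.1 CPM (log2 fold change 2.95 ± 0.13). This locus lies next to Gm42418 (chromosome 17, 39846958 to 39848788), which overlaps an annotated ribosomal RNA, so its UMIs may include ribosomal RNA. Ushbp1 (chromosome 8, 71384272 to 71395802), the only protein-coding gene of the 4, stood at 268, 248 and 199 CPM against 142, 120 and 119 CPM. All 4 were thus higher in the shallow sum of each library. With at most 5% mitochondrial UMIs in both classes the log2 fold change was smaller, 0.58 for Malat1, 1.09 for Kcnq1ot1 (1.59 without this limit), 2.09 for Gm26917 and 0.66 for Ushbp1 (0.85). It was 0.95 for Kcnq1ot1 with the shallow limit at 1500 UMIs, and 0.87 for Malat1 in barcodes with no UMI of epithelial or plasma cell lists. The sums hide a wide spread among barcodes.

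Per barcode, Malat1 made up a median of 2.06%, 1.10% and 0.911% of UMIs in the 3 libraries, against 1.22%, 0.438% and 0.704% in deeper barcodes. The highest shallow barcodes reached 17.9%, 16.5% and 9.06%. At the other end, 41, 37 and 30 shallow barcodes had no Malat1 UMI at all, or 19.1%, 20.9% and 13.6%, against 0.145%, 0.252% and 0.110% of deeper barcodes at their greater depth. At an equal 1000 UMIs the shares without a Malat1 UMI were 18.4% ± 2.63 of shallow and 8.19% ± 4.88 of deeper barcodes (3.95%, 13.5% and 7.09% by library). Ranges of the Malat1 share were then set after this spread had been seen, so what follows from them is a description with no test. At least 3% Malat1 was found in 209 shallow barcodes, 34.2% ± 7.07 (SD, n = 3), against 3.77% ± 3.57 of deeper barcodes. Under 0.25% Malat1 was found in 192 shallow barcodes, 31.7% ± 4.36, against 23.7% ± 13.4 of deeper ones. Between these ends, 96 barcodes had 0.25% to 1% and 115 had 1% to 3%. Rich in nuclear RNA is thus a name for part of these barcodes only. With every barcode thinned at random to 1000 UMIs, which left out 64 shallow barcodes, at least 30 Malat1 UMIs were found in 45.4%, 39.4% and 29.0% of shallow barcodes and in 9.32%, 2.90% and 2.14% of deeper ones.

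The mitochondrial share followed the Malat1 share within the shallow barcodes. Spearman's rho between them was 0.716, 0.698 and 0.718 across the barcodes of libraries 1, 2 and 3, against -0.006, 0.080 and 0.041 in deeper barcodes. Barcodes of a library share its depth and free RNA, so these are descriptions. The median mitochondrial share was 4.43%, 3.52% and 3.49% in shallow and 1.98%, 1.70% and 1.76% in deeper barcodes. Ribosomal protein mRNAs ran the other way with Malat1, at a rho of -0.779, -0.678 and -0.594 in shallow barcodes, with a smaller size in deeper ones at -0.355, -0.370 and -0.186. Their median share was 5.85%, 8.59% and 7.34% of UMIs in shallow and 10.1%, 11.8% and 10.99% in deeper barcodes.

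**Figure D1:**
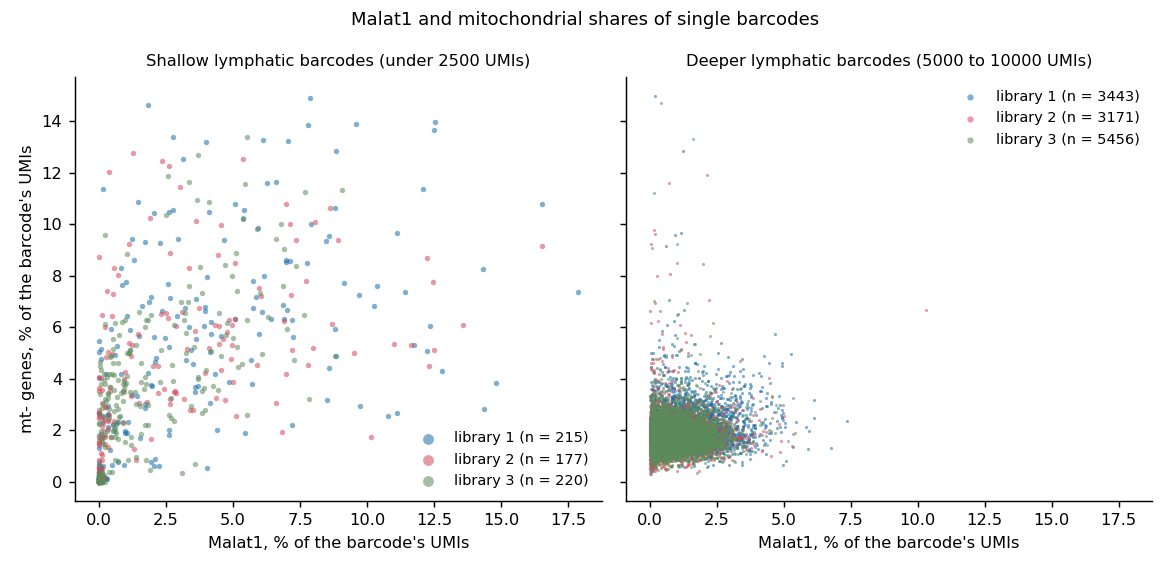
Each point is 1 barcode, with Malat1 on the horizontal and mitochondrial mRNA on the vertical axis, both as a percent of its UMIs, for shallow and deeper lymphatic barcodes. Shallow barcodes spread from a corner low in both to a region high in both. Most deeper barcodes lie close to their median mitochondrial shares of 1.98%, 1.70% and 1.76%, and the highest reach 14.96%, 11.9% and 14.7%.

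A corner of this plot holds shallow barcodes with almost no nuclear noncoding and almost no mitochondrial RNA. Under 0.25% Malat1 together with under 0.5% mitochondrial UMIs was found in 45, 30 and 39 shallow barcodes, 114 in all and 18.5% ± 2.11 of the members. Of these, 43 had no mitochondrial UMI and 32 had neither a Malat1 nor a mitochondrial UMI. Among deeper barcodes 12 of 12070 were as low in both, or 0.0994%, and among lymphatic barcodes of 2500 to 5000 UMIs 17 of 2687, or 0.633%. Low mitochondrial shares went with low Malat1: only 5 of the 119 shallow barcodes under 0.5% mitochondrial UMIs had 0.25% Malat1 or more. The reverse was looser, since 114 of the 192 shallow barcodes under 0.25% Malat1 were also under 0.5% mitochondrial UMIs. Near the limits, 24 barcodes with under 0.25% Malat1 had 0.25% to 0.75% mitochondrial UMIs. At an equal 1000 UMIs, 16.4%, 16.4% and 15.0% of the shallow barcodes were low in both, against 0.210% ± 0.233 of deeper barcodes and 0.873% ± 0.600 of those between.

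These barcodes low in both still carried cytoplasmic transcripts and Ccl21a. They had a median of 1244 ± 23.7 UMIs. Ribosomal protein mRNAs were 12.3%, 12.2% and 10.9% of their UMIs, close to the 10.4%, 11.9% and 11.03% of deeper barcodes outside both extreme ranges. Actb, the cytoplasmic beta-actin gene, stood at 6619 ± 866 CPM against 4656 ± 399 CPM in those deeper barcodes. Lyve1, which the rule used, stood at 4363 ± 599 against 4316 ± 442 CPM, and Prox1, required in deeper barcodes, at 683 ± 34.9 against 783 ± 81.1 CPM. The lymph node homing chemokine gene Ccl21a stood at 12045 ± 1527 against 10836 ± 1215 CPM. Xist had 3 UMIs among 152655, against 863 ± 145 CPM in those deeper barcodes. Neat1 had 4 UMIs, against 454 ± 127 CPM, and Kcnq1ot1 had 0, which allows up to 0.00197% of UMIs beside 0.00472% ± 0.00116 in the deeper ones. Ogt, the gene of an enzyme that adds N-acetylglucosamine to nuclear and cytosolic proteins and whose transcripts often keep an intron in the nucleus, had 2 UMIs. mt-Co1, a subunit gene of cytochrome oxidase, stood at 102, 203 and 91.8 CPM against 3896 ± 544 CPM. This gene counts toward the mitochondrial share that set the range, so its low level follows largely from that choice.

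Reln, Stab1 and Flt4 stood at lower levels in the barcodes low in both than in deeper barcodes. Reln, which encodes the secreted glycoprotein reelin of lymphatic vessels, stood at 544, 482 and 275 CPM, against 1768 ± 131 CPM in the deeper barcodes outside both ranges. Stab1, a scavenger receptor gene of lymphatic and sinusoidal endothelium, stood at 306, 381 and 184 CPM against 826 ± 113 CPM. Flt4, the gene of the lymphangiogenic receptor VEGFR3, stood at 953, 787 and 1010 CPM against 1560 ± 122 CPM. In each case all 3 library values lay below those of the deeper barcodes. Timp3, an inhibitor gene of matrix proteases, stood at 2896 ± 355 against 3427 ± 278 CPM. Actb, mt-Co1, Reln and Timp3 were picked after their values had been seen. Markers of other cell types were uneven between libraries here: the Paneth cell list summed to 17.0, 812 and 3984 CPM, the enterocyte list to 238, 1903 and 532 CPM and the B or plasma cell list to 102, 1700 and 110 CPM. The part of such RNA in these levels was not tested.

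The Malat1-rich barcodes, with 3% or more, lay at the opposite end of most of these measures. Malat1 made up 7.19%, 6.25% and 5.00% of their summed UMIs and the mitochondrial genes 6.94%, 5.98% and 6.44%. Xist stood at 2838 ± 382 CPM and Neat1 at 1383 ± 621 CPM. Ribosomal protein mRNAs made up 3.46%, 5.33% and 4.69% of UMIs. Of the lymphatic genes, Prox1 stood at 859 ± 24.0 CPM, Flt4 at 1748 ± 258, Reln at 2526 ± 259 and Stab1 at 1492 ± 305 CPM, so these were at or above the deeper level. Ccl21a, in contrast, stood at 5315 ± 711 CPM and Actb at 2320 ± 293 CPM. The 289 shallow barcodes in neither range had 8.39% ± 1.02 ribosomal protein mRNA, 1.03% ± 0.172 Malat1 and 4.03% ± 0.529 mitochondrial UMIs.

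**Figure D2:**
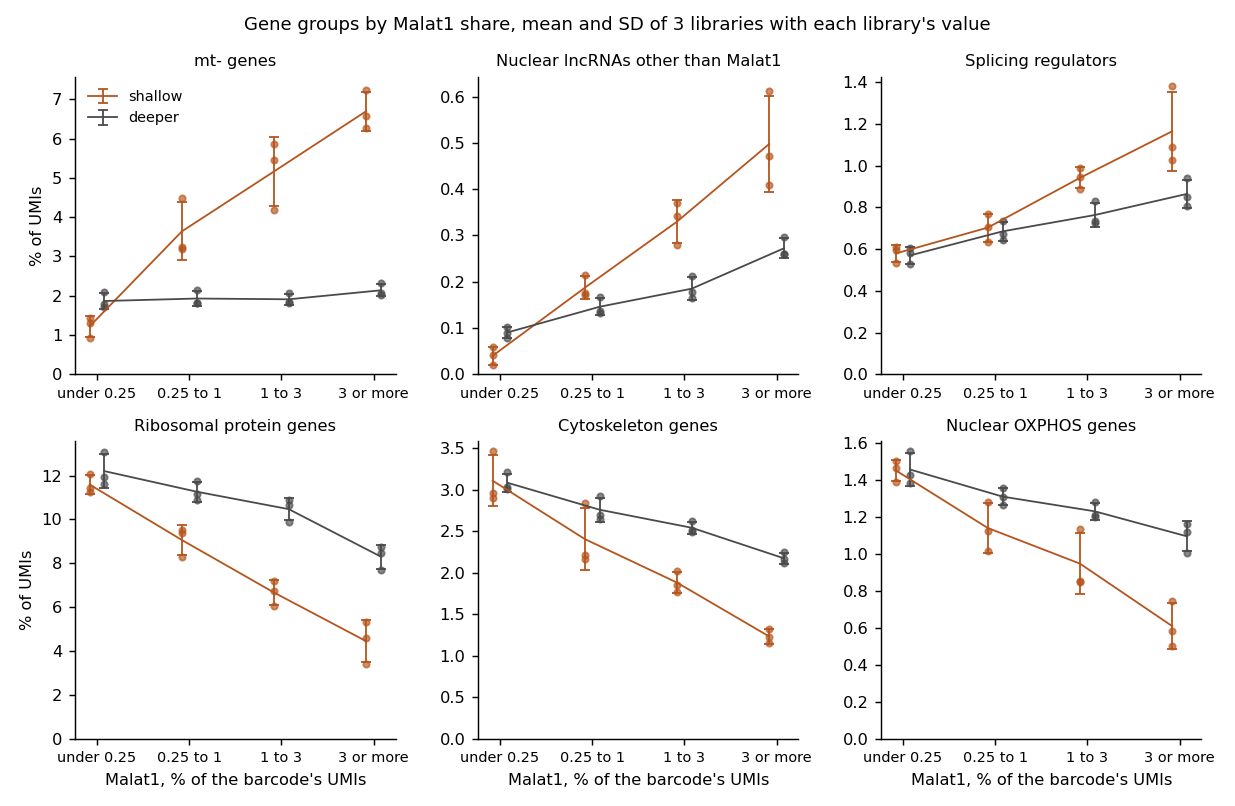
Panels show 6 measures by range of the Malat1 share in shallow and deeper lymphatic barcodes, with points for the 3 libraries and bars for their mean ± SD. In the shallow barcodes the ribosomal protein share drops from the lowest to the highest Malat1 range while the mitochondrial share climbs.

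Along the depth axis the shares did not move in 1 direction. Barcodes of every range here met the filters and gene conditions of the members, with no condition on Prox1. The range of 5000 to 10000 UMIs thus held 12251 barcodes and is not the deeper class of 12070. The Malat1 share of summed UMIs in lymphatic barcodes was 1.03% ± 0.402 under 1000 UMIs, 2.76% ± 1.31 from 1000 to 1500, 3.32% ± 0.531 from 1500 to 2000 and 2.56% ± 0.937 from 2000 to 2500. Above the limit of the rule it was 2.14% ± 1.09 from 2500 to 3000 UMIs, 1.19% ± 0.548 from 3000 to 5000 and 1.04% ± 0.328 from 5000 to 10000. Just inside and just outside the limit the libraries had 3.55%, 2.44% and 1.69% against 3.36%, 1.82% and 1.25%, so the limit cuts through a gradual change. Mitochondrial UMIs followed the same course, at 2.32% ± 0.216 under 1000 UMIs, 4.92% ± 0.447 from 1500 to 2000 and 1.89% ± 0.164 from 5000 to 10000. Barcodes low in both were most frequent in the shallowest range. They were 42.8% ± 8.55 of 64 barcodes under 1000 UMIs, where library 2 had only 12 barcodes, 29.9% ± 3.19 from 1000 to 1500, 12.6% ± 4.44 from 1500 to 2000 and 6.16% ± 2.55 from 2000 to 2500. From 2500 to 3000 UMIs they were 2.43% ± 2.36.

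**Figure D3:**
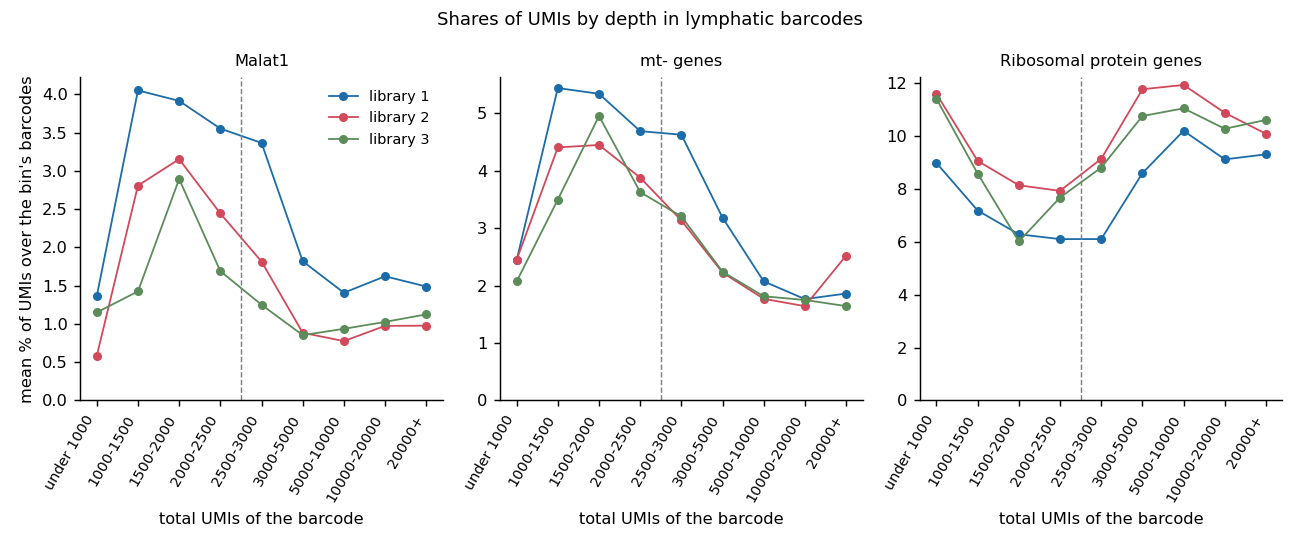
Lines show the Malat1, mitochondrial and ribosomal protein shares of UMIs by range of UMIs per barcode, 1 line for each library, with a dashed line at 2500 UMIs. The axis is labelled as the mean over the barcodes of a range, while the text gives shares of summed UMIs. Malat1 and mitochondrial shares peak between 1000 and 2500 UMIs, where the ribosomal protein share is lowest.

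The summed counts were tested next, with edgeR's quasi-likelihood test, the library as a block and Benjamini-Hochberg adjustment. Gate genes and the 4 markers were not tested. Of 12041 genes, 995 passed at 0.05 (8.26%), 330 higher (2.74%) and 665 lower (5.52%) in shallow barcodes. Of these, 123 were higher and 37 lower by more than 1 on the log2 scale, and the median over all tested genes was -0.03. Because the members are a mixture of the barcodes above, each fold change is an average over them. Without the library block 154 genes passed, 69 higher and 85 lower, and with at most 5% mitochondrial UMIs in both classes 101 passed. That limit leaves out members with a high mitochondrial share, so it compares a smaller and different set. The count was 546 without library 2, 591 without library 3, 400 in DESeq2, 382 at an equal 1000 UMIs and 140 with the shallow limit at 1500 UMIs.

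Nuclear long noncoding RNAs beyond the markers were higher in the shallow barcodes: 5 of 9 tested passed, all higher, with a list median of 0.80. Of all tested genes 2.74% were higher. Xist (chromosome X, 103460366 to 103483254) stood at 1953, 1558 and 1603 CPM in shallow and 1062, 754 and 831 CPM in deeper barcodes. The values did not overlap, and the log2 fold change was 0.91 ± 0.09 (edgeR adjusted p = 7.82e-23, higher in 3 of 3 libraries). Xist lies on the minus strand and overlaps its antisense partner Tsix, and the labels do not state the strand used for counting. Neat1 (chromosome 19, 5824708 to 5845478) stood at 1099, 638 and 780 CPM against 614, 338 and 451 CPM (log2 fold change 0.80 ± 0.09, edgeR adjusted p = 5.93e-15). Firre, Airn and Dleu2 passed with log2 fold changes of 1.10, 0.96 and 0.61. The Xist call was lost with at most 5% mitochondrial UMIs (adjusted p = 0.150) and with the shallow limit at 1500 UMIs (adjusted p = 0.257). That of Neat1 was lost in both settings and without the library block (edgeR adjusted p = 0.514, 0.895 and 0.0677).

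Of 3 loci that overlap sequence like ribosomal RNA, Gm42418 and Lars2 were higher. Gm42418 stood at 86515, 146312 and 157300 CPM in shallow and 62129, 95818 and 102037 CPM in deeper barcodes, the most abundant of the named loci. The library 1 value of the shallow barcodes lay below the deeper values of libraries 2 and 3, and the call (0.52 ± 0.06, edgeR adjusted p = 3.01e-14) was lost without the library block (adjusted p = 0.370). It was also lost with the shallow limit at 1500 UMIs (0.458) and with at most 5% mitochondrial UMIs (0.393). By range, Gm42418 was 11.7% ± 3.58 of UMIs in the barcodes low in both, 14.2% ± 4.56 in the Malat1-rich ones and 8.63% ± 2.21 in deeper barcodes outside both ranges. Host genes of small nucleolar RNAs and other long noncoding RNAs that reach the cytoplasm had a median of -0.36. Of 12 tested, Tug1 was higher and Gas5 and Snhg1 lower, beside 2.74% and 5.52% of all tested genes. Without the library block the calls of Lars2 and Gas5 were lost (edgeR adjusted p = 0.176 and 0.107), as they were with at most 5% mitochondrial UMIs (0.134 and 0.526). Gas5 was also lost in DESeq2 (0.0727), without library 2 (0.143) and at 1500 UMIs (0.0736).

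Splicing regulators were also higher: 14 of 26 passed, beside 2.74% higher of all tested genes. None was lower, and the list median was 0.39. Ogt, kept in this list for its retained intron, stood at 203, 141 and 171 CPM against 86.8, 62.8 and 60.9 CPM (log2 fold change 1.26 ± 0.14, edgeR adjusted p = 2.69e-16), and lost its call with the shallow limit at 1500 UMIs (0.328). Pnisr, a speckle protein gene, stood at 262, 178 and 166 CPM against 122, 87.0 and 88.2 CPM, and Nktr at 428, 235 and 289 CPM against 219, 142 and 166 CPM. The log2 fold change was 0.97 ± 0.13 for Pnisr and 0.80 ± 0.11 for Nktr. The kinase gene Clk1, the splicing factor gene Srsf6 and the speckle scaffold genes Son and Srrm2 passed at 0.36, 0.55, 0.48 and 0.44. Many of these genes are known to keep introns in nuclear transcripts, a point on which 3′ UMI counts per gene hold no value.

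Mitochondrially encoded mRNAs were higher as a block, 12 of 13 with a median of 1.16, beside 2.74% higher of all tested genes. In all 13 the shallow values lay above the deeper values without overlap, beside 11.2% of all tested genes. The rule had used their share only as an upper limit of 15%. mt-Nd3, a subunit gene of respiratory complex I, stood at 473, 420 and 366 CPM in shallow and 183, 156 and 147 CPM in deeper barcodes, with no overlap (1.32 ± 0.11, edgeR adjusted p = 6.99e-32). Its log2 fold change was 0.17 with at most 5% mitochondrial UMIs (adjusted p = 0.854), a limit that acts on these genes themselves. mt-Nd6, the 1 that missed the test, stood at 31.0, 30.2 and 23.0 CPM against 11.1, 12.1 and 18.3 CPM (edgeR adjusted p = 0.0548). The nuclear genes of the same respiratory complexes went the other way, with a median of -0.43. Among them 34 of 52 were lower and none higher, beside 5.52% lower of all tested genes. Cox8a, a nuclear subunit gene of cytochrome oxidase, had a log2 fold change of -0.68, and lost its call with at most 5% mitochondrial UMIs (0.0811).

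Several classes of cytoplasmic mRNA were lower, with counts to be set beside 5.52% lower of all tested genes. Of 79 cytosolic ribosomal protein genes 78 were lower and none higher, with a median of -0.60. In 74 of them the shallow values lay below the deeper values without overlap, beside 15.0% of all tested genes. Rps2 stood at 696, 725 and 831 CPM against 1160, 1391 and 1476 CPM, without overlap (-0.88 ± 0.09, edgeR adjusted p = 5.06e-19). Of 18 translation factors 13 were lower, with a median of -0.43. The elongation factor gene Eef1a1 stood at 2288, 2599 and 2452 CPM against 3150, 3258 and 3187 CPM (-0.44), and the start codon selection factor gene Eif1 had -0.73. Of 24 cytoskeleton genes 19 were lower, with a median of -0.46. Tmsb4x, whose peptide binds actin monomers, stood at 6681, 7065 and 6807 CPM against 9443, 9769 and 9428 CPM (-0.53). Gapdh, the glycolytic enzyme gene outside the lists, stood at 130, 175 and 133 CPM against 268, 301 and 300 CPM (-1.05 ± 0.13, edgeR adjusted p = 9.41e-14). Of 22 genes of the endoplasmic reticulum and secretion, whose mRNAs are translated on membranes, 8 were lower, with a median of -0.23, among them Ppib at -0.61. Without the library block the calls of Eef1a1, Tmsb4x and Ppib were lost (edgeR adjusted p = 0.106, 0.0804 and 0.0653). With at most 5% mitochondrial UMIs they were lost at log2 fold changes of -0.19, -0.26 and -0.42 (0.6996, 0.481 and 0.176), and with the shallow limit at 1500 UMIs at -0.40, -0.41 and -0.35 (0.0994, 0.0783 and 0.682). At that limit Gapdh had -0.63 and was lost as well (0.121).

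**Figure D4:**
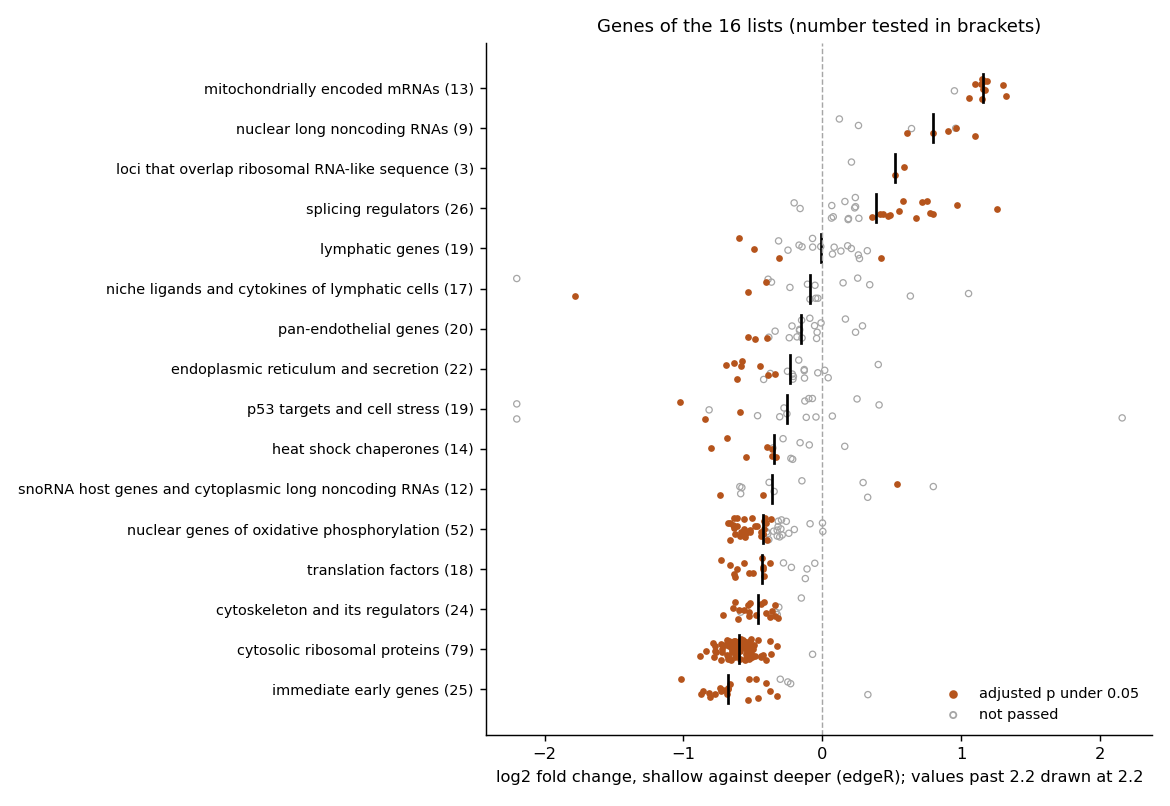
Points are the tested genes of the 16 lists, placed by log2 fold change of shallow against deeper barcodes, with a bar at each list's median, and 3 genes beyond the axis are drawn at its limit of 2.2. Mitochondrial mRNAs (median 1.16) and nuclear long noncoding RNAs (0.80) lie to the right, ribosomal proteins (-0.60) and immediate early genes (-0.68) to the left.

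Immediate early genes, which are switched on within minutes of stimulation or tissue dissociation, were lower, 21 of 25 with a median of -0.68, beside 5.52% of all tested genes. Their classes mostly overlapped, since in only 5 of 25 did the shallow values all lie below the deeper values, beside 15.0% of all tested genes. Fos, a subunit gene of the AP-1 factor, stood at 4373, 2559 and 2570 CPM against 5858, 4547 and 5865 CPM (-0.86 ± 0.08, edgeR adjusted p = 3.58e-24). Every shallow value lay below every deeper value, with library 1 nearest. Without the library block its adjusted p was 0.0574. Klf2, the flow-responsive transcription factor gene, stood at 1767, 571 and 698 CPM against 1915, 997 and 1398 CPM, with overlap between the classes (-0.66), and its call was lost without the block (0.398) and at 1500 UMIs (0.0561). Ier3 had -1.02. Library 1 stood apart within the Malat1-rich barcodes, where the list made up 3.55%, 0.716% and 1.04% of UMIs in libraries 1, 2 and 3. In the barcodes low in both it was 5.21%, 4.31% and 3.15%, beside 4.24%, 3.28% and 4.13% in deeper barcodes outside both ranges. Of 14 heat shock chaperones 7 were lower (median -0.34), among them Hspb1 at -0.80, a call lost with at most 5% mitochondrial UMIs (0.254). Of 19 p53 and stress genes 3 were lower and none higher, beside 5.52% lower of all tested genes. These were the growth arrest genes Gadd45b (-1.02, with an edgeR adjusted p of 0.0736 at the limit of 1500 UMIs) and Gadd45g and the cell cycle inhibitor gene Cdkn1a (-0.59).

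Of 19 lymphatic genes 1 was higher and 3 were lower, beside 2.74% and 5.52% of all tested genes. The list median was -0.01 with a range of -0.60 to 0.42. These are averages over the ranges above, in which the means of Reln, Stab1, Flt4 and Ccl21a lay on opposite sides of the deeper level. Flt4 stood at 1758, 1494 and 1557 CPM against 1694, 1551 and 1443 CPM (-0.01, edgeR adjusted p = 0.975), and its sign changed with the scaling. Prox1 stood at 840, 752 and 808 CPM against 884, 733 and 745 CPM, although the rule asked for Prox1 in deeper barcodes only. With Prox1 required in both classes its log2 fold change was 0.44 in place of -0.02, so its level depends on the gate. A Prox1 UMI was found in 142, 113 and 157 shallow barcodes. Lyve1, used by the rule in both classes, stood at 3734, 3492 and 3393 CPM against 4753, 4309 and 3869 CPM. Stab1 was higher at 1322, 1182 and 949 CPM against 948, 822 and 717 CPM (0.42 ± 0.09, edgeR adjusted p = 0.000108). The shallow value of library 3 was just above the deeper value of library 1, and the call was lost without the library block (0.127) and with at most 5% mitochondrial UMIs (0.964), and at 1500 UMIs the sign changed (-0.04). Ccl21a, whose near-identical copies make its count uncertain, was lower at 7690, 9463 and 6761 CPM against 10584, 12086 and 9686 CPM (-0.49 ± 0.07, edgeR adjusted p = 3.27e-09). Its call was lost without the block (0.165), at 1500 UMIs (0.0561) and with at most 5% mitochondrial UMIs (0.459). Clca3a1 and Fgl2 were the other lymphatic genes that were lower, at -0.60 and -0.31. Mmrn1, a lymphatic gene of many tissues, had 0 UMIs in both classes, which allows up to 2.87 CPM in shallow and 0.0345 CPM in deeper barcodes.

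Pdpn, the gene of the sorted protein podoplanin, stood at 254, 212 and 187 CPM against 272, 262 and 247 CPM (-0.31, edgeR adjusted p = 0.0829). It passed without library 1 (-0.43, adjusted p = 0.0261), with the shallow limit at 2000 UMIs (-0.51, 0.0269) and at an equal 1000 UMIs with 1 gate for both classes (-0.55, 0.01997). Of 20 genes shared by all endothelium 3 were lower, Ramp2 (-0.54), Cldn5 (-0.40) and Ecscr (-0.48), beside 5.52% of all tested genes. The list median was -0.16. With at most 5% mitochondrial UMIs the edgeR adjusted p of Ramp2 was 0.335, and 0.123 at 1500 UMIs. Pecam1, the gene of the sorted protein CD31, was not among them (-0.16, edgeR adjusted p = 0.387). Of 17 niche ligands and cytokines 3 were lower, Igfbp5 (-0.41), Nts (-0.54) and Cxcl9 (-1.78), and none higher, beside the same 5.52% lower of all tested genes. Without the block the call of Igfbp5 was lost (0.154), as it was after thinning with 1 gate (0.127). Wnt2, a ligand gene for intestinal stem cells, stood at 172, 144 and 161 CPM against 168, 153 and 153 CPM. Rspo3, the gene of a Wnt amplifier, stood at 251, 292 and 368 CPM against 312, 306 and 296 CPM. Neither passed (edgeR adjusted p = 0.953 and 0.883), and in both the classes overlapped.

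At an equal 1000 UMIs, Flt4 was detected in 77.8% ± 0.858 of shallow and 77.6% ± 2.54 of deeper lymphatic barcodes. In deeper barcodes of other cells it was detected in 1.52% ± 0.974, taken as the background. Unthinned, the shares were 88.0%, 99.9% and 12.9%. Reln was detected in 74.4% ± 3.59, 79.3% ± 3.03 and 2.60% ± 1.04 (unthinned 81.2%, 99.9% and 14.8%). Pdpn was detected in 18.8% ± 0.495, 22.1% ± 1.51 and 10.2% ± 1.44 (unthinned 28.8%, 76.7% and 39.6%). The number of genes per barcode at this depth was 610 ± 9.64 in shallow and 654 ± 15.2 in deeper barcodes, with all 3 shallow values below all 3 deeper ones.

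RNA of other cell types was also higher in the shallow barcodes. The largest positive log2 fold changes outside the lists were those of Defa30 (2.52), Fabp6 (2.03), Reg3b (2.02), Defa24, Igha (1.86) and Igkc (1.69), which are Paneth cell defensin, ileal enterocyte, epithelial and immunoglobulin genes. Reg3b, which encodes an antibacterial lectin, stood at 28.2, 430 and 81.8 CPM against 7.32, 96.4 and 21.6 CPM. Without the library block none of these 6 passed (edgeR adjusted p for Reg3b 0.343), and Defa24 and Defa30 did not pass in DESeq2. The enterocyte list summed to 166, 1397 and 353 CPM in shallow and 49.5, 325 and 110 CPM in deeper barcodes. Yet a UMI of it was found in fewer shallow barcodes, 21.4%, 80.2% and 38.6% against 29.4%, 84.8% and 45.9%, at their lower depth. The fibroblast list averaged 30.8 against 10.1 CPM, the myeloid list 35.3 against 19.0 CPM and the mural list 62.0 against 20.4 CPM. Blood endothelial markers averaged 9.49 against 10.7 CPM, with 6 of 8 at 0 UMIs in shallow barcodes, and none of 4 red blood cell markers had a UMI there. The part of such RNA in the nuclear and mitochondrial differences was not tested. In barcodes with no UMI of the enterocyte, Paneth and B or plasma cell lists, a setting added after seeing the data, 76 genes passed, and Xist and Neat1 stayed among them. Of the genes named above, Ccl21a, Cox8a, Eef1a1, Gas5, Gm42418, Hspb1, Ier3, Igfbp5, Klf2, Lars2, Ppib, Ramp2 and Stab1 lost their calls there, with edgeR adjusted p from 0.0631 to 0.913. The setting kept only 133, 13 and 81 shallow barcodes, and some folds barely moved, with Ccl21a at -0.44 and Ppib at -0.67.

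Gene size went along with the difference. Among 12041 tested genes 12037 matched the GENCODE M21 annotation of GRCm38. Of 1223 protein-coding genes that span under 5 kb, 1.31% were higher and 19.4% lower, with a median of -0.31. Of 1490 that span 100 kb or more, 4.36% were higher and 0.872% lower, with a median of 0.11. By exonic length the medians were -0.41 for 243 genes under 1 kb and 0.14 for 3759 genes of 6 kb or more. The 16 higher genes under 1 kb of exon were genes of epithelial type, such as Fabp6, Tff3, Spink4 and the defensins. Within the members, and leaving out ribosomal protein genes, genes spanning 100 kb or more gave 10.9% ± 0.782 of the nuclear-encoded protein-coding UMIs of the barcodes low in both. They gave 14.5% ± 0.748 in the barcodes of neither range and 18.6% ± 0.304 in the Malat1-rich ones, around 12.9% ± 0.417 in deeper barcodes outside both ranges. Genes under 5 kb gave 23.0% ± 1.75, 17.4%, 12.2% ± 0.791 and 20.6% ± 0.493 in the same order. Sense intronic transcripts, which lie inside introns of other genes, had a median of 0.86, with 7 of 86 higher (8.14%), beside 2.74% of all tested genes. A gene scarce in deeper barcodes could pass the filter on low counts through its shallow counts alone. That can raise the median of a scarce class, and its part here was not tested. Among protein-coding genes of 20 CPM or more on average, 36.5% of those under 5 kb were lower and 1.73% higher (median -0.39). Of those spanning 100 kb or more, 1.33% were lower and 6.65% higher (median 0.10). Length, expression level and class of gene go together, and their separate parts were not tested.

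**Figure D5:**
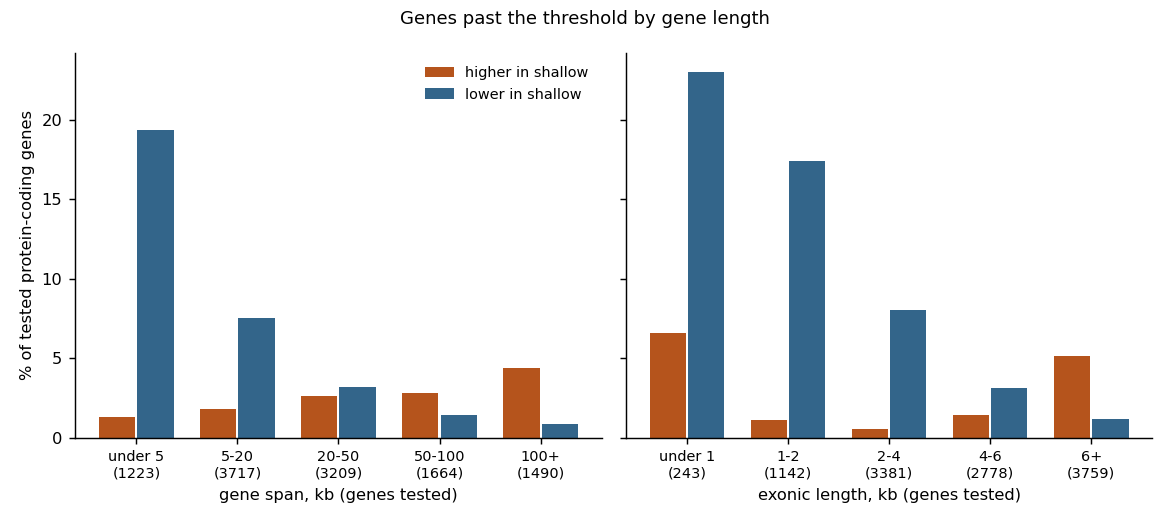
Bars give the percent of tested protein-coding genes that were higher or lower in shallow barcodes, by genomic span and by exonic length. The lower share drops from 19.4% of genes under 5 kb to 0.872% of genes of 100 kb or more.

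The same shallow sums were also compared with lymphatic barcodes of the next depth, 2500 to 5000 UMIs (575, 657 and 1455 barcodes). These met the same filters and gene conditions as the members. Of 9104 genes 290 passed (3.19%), 128 higher (1.41%) and 162 lower (1.78%). Both comparisons share the shallow barcodes, so their values are only set side by side. Malat1 stood at 19751, 9582 and 8730 CPM at the next depth, a log2 difference of 1.20 ± 0.11 (1.33 against deeper barcodes). For Xist it was 0.57 (0.91), for mt-Nd3 0.94 (1.32), for Gm26917 1.89 (2.95) and for Rps2 -0.52 (-0.88). Fos was at -0.13 with an edgeR adjusted p of 0.582, and none of the 25 immediate early genes passed at this depth. Of the mitochondrial mRNAs 12 of 13 were higher, of the splicing regulators 12 of 26 were higher and of the ribosomal protein genes 61 of 79 were lower. Of the nuclear long noncoding RNAs 2 of 8 were higher, Neat1 and Xist, against 5 of 9 in the deeper comparison. Lower were 12 of 52 nuclear genes of the respiratory complexes, 5 of 18 translation factors and 2 of 24 cytoskeleton genes. The deeper comparison had 34, 13 and 19. None of 22 endoplasmic reticulum and secretion genes passed, against 8 lower there. Without the library block edgeR called 0 genes here, with 922 at an unadjusted p under 0.05, and DESeq2 with the block called 140. The edgeR count was 436 without library 1, 83 without library 2 and 112 without library 3.

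Shallow barcodes of other cells could be described only. There were 14, 45 and 19, defined by no Lyve1 or Prox1 and at least 1 UMI of Ptprc, Epcam or Dcn, too few per library for a test of whether the difference with depth is particular to lymphatic barcodes. Their Malat1 share was 0.113%, 2.75% and 2.12%, against 2.45%, 1.73% and 1.41% in deeper barcodes of other cells. Ribosomal protein mRNAs made up 14.7%, 9.45% and 10.5% against 10.3%, 12.03% and 12.6%. Of the markers, Gm26917 made up 0%, 0.359% and 0.385% of UMIs in shallow and 0.0352%, 0.0323% and 0.00997% in deeper barcodes of other cells. For Kcnq1ot1, with 16 UMIs in the shallow ones, the values were 0%, 0.0159% and 0.0158% against 0.0057%, 0.00595% and 0.00376%. None of these shares differed in 1 direction in all libraries, and library 1 had only 14 of these shallow barcodes.

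The libraries held totals of 58857545, 69231794 and 74571090 UMIs in 32285 genes. Pairs of libraries shared 19, 13 and 30 barcodes, and 4 of the 612 shallow and 53 of the 12070 deeper barcodes also occurred in another library. No shallow barcode lay within 1 base of a barcode of 2500 or more UMIs in its library, which allows a share of up to 0.490%.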

How the data were processed

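The values analysed are deposited raw UMI counts, 1 whole number for each gene in each barcode, with no scaling by the authors. Chromium 3′ v3 chemistry was used, per the labels, and Cell Ranger 6.1.2, bcl2fastq 2.2 and mm10 are named in the submitters' processing notes. Its annotation release was not stated in these. No doublet caller was run.

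Counts were summed per library and class and tested by the quasi-likelihood F test of edgeR 4.0.16 (R 4.3.3) after filterByExpr and TMM scaling. Library was a block, since each library's sums come from 1 pool and run. Benjamini-Hochberg adjustment ran over all tested genes at 0.05. The SE of a log2 fold change is its size divided by the root of F. The test was tried on simulated data. DESeq2 1.42.0, other scalings, filters, gates and depths were alternatives. Intervals are exact 95% binomial, and floors are 3 counts. Both cover counting error only. CPM is taken over all UMIs of a sum, and 3′ counts are not scaled by gene length.

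The members, lists and tests were chosen with earlier results of these data known. The genes named are a fixed set, the gene with the largest change in each direction of a list (100 CPM or more, 1 sign in 3 of 3 libraries) and 6 in each direction outside the lists. Other genes named were chosen after their values were seen. Ranges of Malat1 and mitochondrial share were set after their spread was seen. A planned test of the depth difference against other cell types was not run, since 2 libraries had fewer than 20 shallow barcodes of other cells.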

Additional observations from a re-analysis of the deposited data

Results flagged for a closer look

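Shallow lymphatic barcodes left out by the mitochondrial limit held Malat1 above the level of deeper barcodes, a signal in data that the comparisons did not use. In 23 barcodes with at least 500 genes and over 15% mitochondrial UMIs, Malat1 was 4.27% of UMIs (exact 95% interval 4.04 to 4.50), and 19 of them came from library 1. In 21 barcodes with fewer than 500 genes and over 15% mitochondrial UMIs it was 4.28% (3.98 to 4.59). Pooled over libraries it was 2.71% in the members and 1.04% in deeper barcodes. Within library 1 the first 2 sets both had 4.58%, against 3.59% in its members. In library 2 they had 3.18% (2.67 to 3.76) and 3.23% (2.63 to 3.92), each from 3 barcodes, against 2.69% in its members. In library 3 the single barcode of the first set had 1.34% (0.734 to 2.24) and the 5 of the second 4.32%, against 1.93% in its members. The 112 barcodes with fewer than 500 genes and at most 15% mitochondrial UMIs had 0.611% (0.556 to 0.670).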

How the results depend on the processing

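Against deeper barcodes 995 genes passed. The count was 400 in DESeq2 (139 higher, 261 lower), 154 with no replicate block, 382 after thinning, 539 after thinning with 1 gate, 576 and 140 with the shallow limit at 2000 and 1500 UMIs, 101 with at most 5% mitochondrial UMIs and 76 without barcodes holding epithelial or plasma cell UMIs (added after seeing the data). Leaving out a library gave 546 to 798, lowest without replicate 2 and 591 without replicate 3. Against the next depth 290 passed. The count was 140 in DESeq2, 0 with no replicate block, 118 after thinning, 137 and 19 at 2000 and 1500 UMIs, 22 with at most 5% mitochondrial UMIs and 17 in the added setting. Leaving out a library gave 83 to 436, with 112 without replicate 3. The other settings stayed within 1.5 times. Fewer barcodes or UMIs enter the thinned, shallower, 5% mitochondrial and added settings. The upper quartile of the mitochondrial share in shallow barcodes was 7.21%, 6.08% and 5.16% in libraries 1, 2 and 3. Mitochondrial and Malat1 shares rise together in these barcodes, so the limit of 5% also changes the mix of members.

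Some genes, mostly near 0, changed sign. For Wnt2 (-0.03) the log2 fold change was 0.0131 in DESeq2, 0.0152 with RLE factors, 0.0171 with total UMIs, 0.0035 without replicate 2 (-0.0695 without replicate 3), 0.130 and 0.0571 in the thinned settings, 0.0017 at 1500 UMIs, 0.130 with at most 5% mitochondrial UMIs and 0.162 in the added setting. Flt4 (-0.01) had 0.0358, 0.0359 and 0.0378 in the first 3 of these, 0.0292 without replicate 2 (-0.0530 without replicate 3), 0.0550 after thinning, 0.0011 with Prox1 required in both classes and 0.0442 at 800 genes or more. Rspo3 had 0.0769 without replicate 1 and -0.247 without replicate 3, and Stab1 (0.42) had -0.0380 at 1500 UMIs. Against the next depth mt-Nd3 (0.94) had -0.0498 with at most 5% mitochondrial UMIs, a limit that acts on this gene itself. The cause of the other changes of sign was not tested. Of 777 values over 17 settings against deeper barcodes, 656 kept direction and side of the threshold, 79 lost the threshold, 3 gained it, and 21 values of untested genes, the 4 markers, Prox1 and Lyve1, moved by more than their spread between libraries. Against the next depth 126 of 170 kept both, 27 lost the threshold and 16 moved.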
